A study of Mus musculus with 7 samples.

Results

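The glutamate receptor subunits and the scaffold proteins that hold them at the synapse were followed by 34 gene symbols, of 48321 symbols counted in each library. The symbols were chosen by name: 4 AMPA receptor subunits, 7 NMDA receptor subunits, 5 kainate receptor subunits, the delta receptor gene Grid1, 7 metabotropic receptors, 3 PSD-95-type scaffolds (Dlg2, Dlg3 and Dlg4), 3 Shank genes, Homer2 and Homer3, and the cornichons Cnih2 and Cnih3. All 34 were listed in all 7 libraries. The tissue was VMHvl, the ventrolateral division of the hypothalamic ventromedial nucleus, dissected by hand from ovariectomized female mice. In the EB group, 4 mice received estradiol benzoate (EB), a slowly cleaved estradiol ester, at 1 µg under the skin, and in the vehicle group 3 mice received the vehicle alone. Tissue was taken 4 hours after either injection. All mice lacked ovaries, were of mixed background with 129/Sv ancestry from a floxed Esr1 line, and gave 1 library each, and no age, Cre or batch is given in the labels. The question asked of the data was whether RNA of the excitatory postsynaptic machinery differed 4 hours after estrogen replacement.

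Glutamate is the main fast excitatory transmitter of the brain, and most VMHvl neurons use it themselves. AMPA receptors carry the fast current, NMDA receptors admit calcium when the cell is already depolarised, kainate receptors act on both sides of the synapse, and metabotropic receptors signal through G proteins. Dlg proteins bind the receptor tails, Shank proteins link them through further adaptors to Homer and actin, and cornichons are auxiliary subunits that escort AMPA receptors and slow their gating. Estradiol is known from other brain regions, the hippocampus in particular, to change spine density and NMDA receptor function.

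Promoter sequence was read to see what the members share beyond their names, and 2 windows are shown because both hold a piece of RE1, the element bound by REST, a repressor that silences neuronal genes outside neurons. The windows are the 250 bases before the RefSeq start in GRCm38.p6, the assembly also called mm10, printed on the strand of the gene. Capitals mark matches to the RE1 right arm (GGACAGC, or its complement GCTGTCC) and the RE1 left arm (TTCAGCACC). Gria2, the highest member per length, is shown from chr3:80802836-80803085 (minus strand), and Grm2, one of the lowest, from chr9:106656110-106656359 (minus strand).
Gria2: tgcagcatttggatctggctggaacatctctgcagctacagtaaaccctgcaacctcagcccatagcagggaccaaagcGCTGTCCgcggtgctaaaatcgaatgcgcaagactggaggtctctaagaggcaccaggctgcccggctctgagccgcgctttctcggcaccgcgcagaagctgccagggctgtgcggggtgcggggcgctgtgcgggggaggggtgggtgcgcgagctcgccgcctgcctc
Grm2: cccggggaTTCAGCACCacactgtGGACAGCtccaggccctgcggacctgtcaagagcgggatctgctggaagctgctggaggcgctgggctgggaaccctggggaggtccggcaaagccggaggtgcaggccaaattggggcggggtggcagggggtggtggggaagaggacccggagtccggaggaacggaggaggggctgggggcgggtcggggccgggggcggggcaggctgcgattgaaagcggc

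Of 34 symbols, 23 matched a gene in the RefSeq promoter table, with 32 windows between them, and both strands were searched. No window was found for Gria1, Gria3, Grin2a, Grin2b, Grin3a, Grik1, Grid1, Grm4, Grm5, Shank1 or Shank2. The promoter values below do not cover those genes. The right arm was present in 3 of the 32 windows (9.38%), those of Gria2, Grm2 and Homer2, and in 5.28% of 32851 windows of all genes. The left arm was present in 1 window (3.12%), that of Grm2, and in 0.301% of all windows. The palindromic estrogen response element was in 0 of the 32 windows and in 0.0639% of all windows, and AGGTCA, a single arm of it, was in 3 (9.38%), of Dlg4, Grin2c and Homer3, against 14.0% of all windows. The cAMP response element TGACGTCA was in 0 windows against 1.55% of all. GC boxes (GGGCGG) were in 16 windows (50.0%) against 32.7%, and the median GC content was 62.6% with 11 CpG dinucleotides, against 52.4% with 6 over all windows. These letters describe the windows and say nothing of binding.

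Libraries held 22311424 to 33302293 counts in EB mice and 21037303 to 30909554 in vehicle mice. The dissection carried marks of both glutamate and GABA neurons. CPM are counts scaled to a common library size with TMM factors. Slc17a6, the vesicular glutamate transporter of the hypothalamus, averaged 633 ± 55.6 CPM in EB mice and 499.6 ± 61.3 CPM in vehicle mice. Slc17a7, its cortical counterpart, averaged 9.03 ± 3.20 and 10.1 ± 1.60 CPM in the same order (SD, n = 4 and 3). The GABA neuron genes Gad1 and Slc32a1 averaged 68.8 ± 12.8 and 27.0 ± 2.72 CPM in EB mice, against 67.7 ± 9.06 and 24.3 ± 7.18 CPM in vehicle mice. All 3 GABA neuron markers summed to 707 to 816 CPM in EB mice and 561 to 835 CPM in vehicle mice. Nr5a1, a defining gene of the VMH, was low, at 2.52 ± 1.11 CPM in EB mice and 2.03 ± 1.02 CPM in vehicle mice. Esr1, the estrogen receptor alpha gene that marks VMHvl neurons, averaged 192 ± 30.2 CPM in EB mice and 223 ± 81.6 CPM in vehicle mice. Pgr, a known estrogen-induced gene, was at 207 ± 17.6 CPM in EB mice and 82.2 ± 6.70 CPM in vehicle mice. The libraries of vehicle 1 and EB 4 stood highest in the summed level of 10 mural and fibroblast markers, at 339 and 259 CPM, against 127 to 207 CPM in the other libraries; none of these markers was at 0 in any library. In bulk tissue, fewer cells of a type and less RNA per cell cannot be told apart.

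No member passed the test for a change with EB. EdgeR's quasi-likelihood test with Benjamini-Hochberg adjustment over 18387 genes called 0 of 32 tested members at an adjusted p under 0.05, against 0.919% of all tested genes (0.712% higher and 0.207% lower with EB). DESeq2 called 0 members against 1.96% of genes, and limma-voom called 0 against 0.816%. With each of these tools 1 member, Shank2, had an unadjusted p below 0.05, against 8.54% of genes by edgeR. Grin3b and Grm6 were too low to be tested. The CPM of EB and vehicle mice overlapped in 30 of the 32 members, and the 2 without overlap (6.25%, Shank2 and Grik5) both with EB mice above, compare with 9.10% of all tested genes (5.11% with EB mice above and 3.99% with EB mice below). The estimated log2 changes of EB over vehicle ran from −0.34 (Grm2) to 0.32 (Shank2). Of these estimates 22 (68.8%) were below 0, against 51.7% of all tested genes, and their median was −0.05 against −0.008 over all tested genes. With 1 library left out the median ran from −0.08 without vehicle 1 (24 of 32 estimates below 0) to −0.01 without vehicle 2 (19 below 0). Vehicle 2 was the library in which 14 of the 32 members had their highest level. Among members with a mean of at least 20 CPM vehicle 2 was highest for 40.7%, against 29.1% in all genes. Vehicle 3 was highest for 29.6%, against 9.57% in all genes, and vehicle 1 for 0%, against 11.8%. The lowest library was EB 3 for 33.3% (15.4% in all genes), EB 4 for 33.3% (20.1%) and vehicle 1 for 25.9% (19.8%). When libraries were scaled by size alone, 17 of 32 estimates were below 0. That scaling set the member median at −0.01 and the median of all genes at 0.033.

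**Figure D1:**
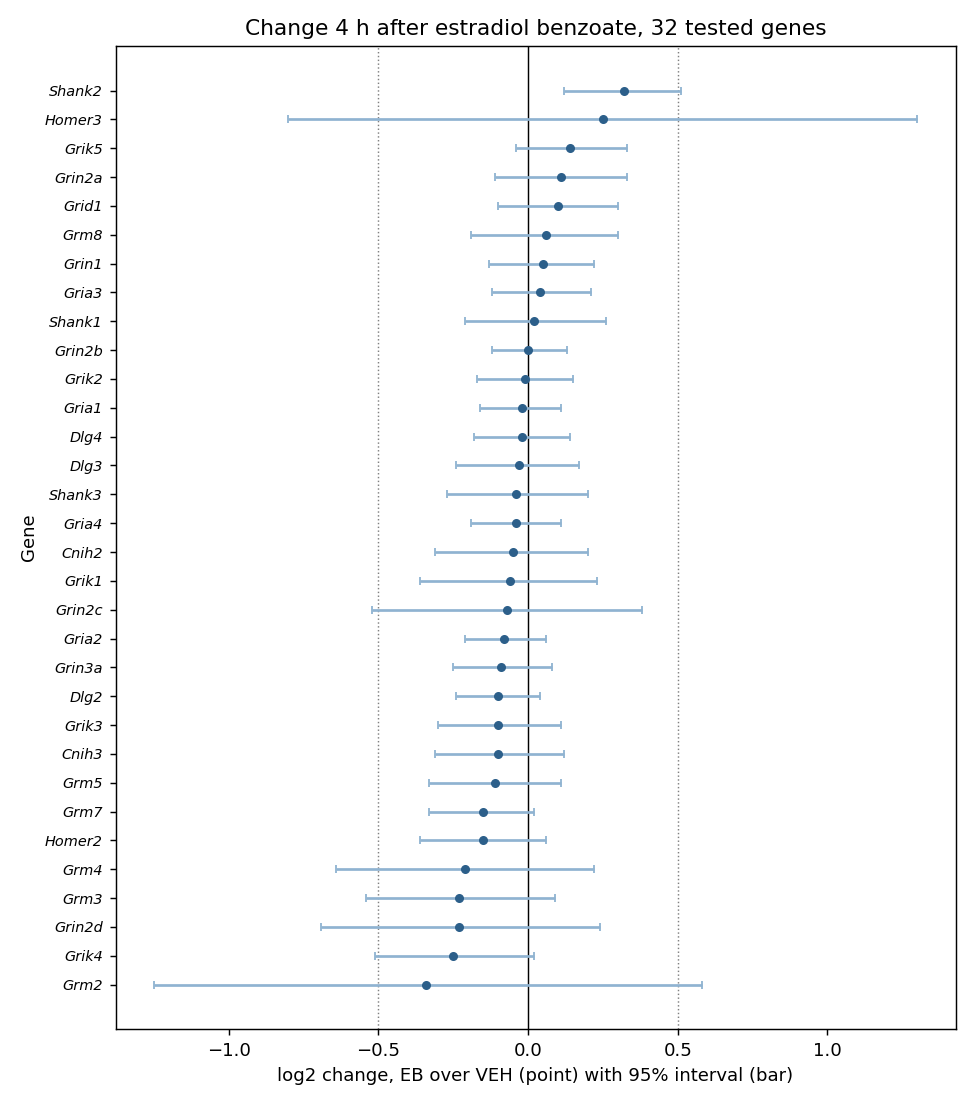
Log2 change of EB over vehicle for the 32 tested members (points) with 95% intervals from edgeR (bars), ordered by size, with dotted lines at 0.5 log2 units on both sides of 0. Shank2 at the top, at 0.32, is the member whose interval leaves out 0, and the widest intervals belong to Grm2 and Homer3, which have few counts.

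The intervals show how closely the edgeR fit to these 7 mice placed the mean change of each member. For 24 of the 32 members the 95% interval, not adjusted for the number of genes, lay within 0.5 log2 units of 0, which is 1.41-fold, against 42.3% of all tested genes. All 24 belong to the 27 members with a mean of at least 20 CPM, and at that level 89.4% of 6696 genes had intervals as narrow. The within-group coefficient of variation of these 27 members had a median of 8.54% (range 4.02% to 16.1%), against 8.25% for all genes at that level. Below 20 CPM the intervals were wide: Grm2 had −1.25 to 0.58 and Homer3 −0.80 to 1.30 on the log2 scale.

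AMPA receptor subunits were the most abundant family per length. Gria2, which makes most AMPA receptors impermeable to calcium once its RNA is edited, had 1325, 1292, 1177 and 1189 CPM in EB 1 to 4, against 1245, 1389.9 and 1307 CPM in vehicle 1 to 3. The ranges overlapped, with EB 3 lowest and vehicle 2 highest, and the log2 change was −0.08 ± 0.06 (SE, 95% interval −0.21 to 0.06, adjusted p = 0.837). Gria1, the subunit most tied to activity-dependent insertion, had 472, 465, 424 and 482 CPM in EB mice, against 458, 496 and 452 CPM in vehicle mice, again with overlapping groups (log2 −0.02 ± 0.06). Gria3 averaged 341 ± 26.9 CPM in EB mice and 331 ± 27.0 CPM in vehicle mice, and Gria4, a subunit of fast-gating receptors, averaged 154 ± 10.1 and 159 ± 7.99 CPM in the same order. Intervals of all 4 lay between −0.21 and 0.21.

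The make-up of the AMPA receptor RNA pool overlapped between the groups as well. Gria2 took 57.1%, 56.6%, 56.7% and 55.7% of the counts of the 4 subunits in EB 1 to 4, against 56.7%, 59.4% and 57.2% in vehicle 1 to 3 (difference −1.24 percentage points, and −0.433 without vehicle 2; two-sided exact permutation p = 0.114, adjusted p = 0.714 over 25 shares). Gria1 took 20.9 ± 1.11% in EB mice and 20.6 ± 0.726% in vehicle mice, Gria3 15.5 ± 0.415% and 14.6 ± 1.43%, and Gria4 7.02 ± 0.519% and 6.99 ± 0.475% (SD, n = 4 and 3). Per kb of exon, Gria2 and Gria1 were close to each other, at 37.2 ± 0.680% and 35.4 ± 1.60% in EB mice and 38.3 ± 1.16% and 35.1 ± 1.27% in vehicle mice. The cornichons, at 53.0 ± 4.58 CPM in EB mice and 56.6 ± 6.42 CPM in vehicle mice for Cnih3, and 33.9 ± 3.44 and 35.2 ± 5.05 CPM for Cnih2, had log2 changes of −0.10 ± 0.10 (−0.00212 without vehicle 2) and −0.05 ± 0.12. Cnih2 made up 39.0 ± 2.39% of cornichon counts in EB mice and 38.3 ± 2.80% in vehicle mice.

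**Figure D2:**
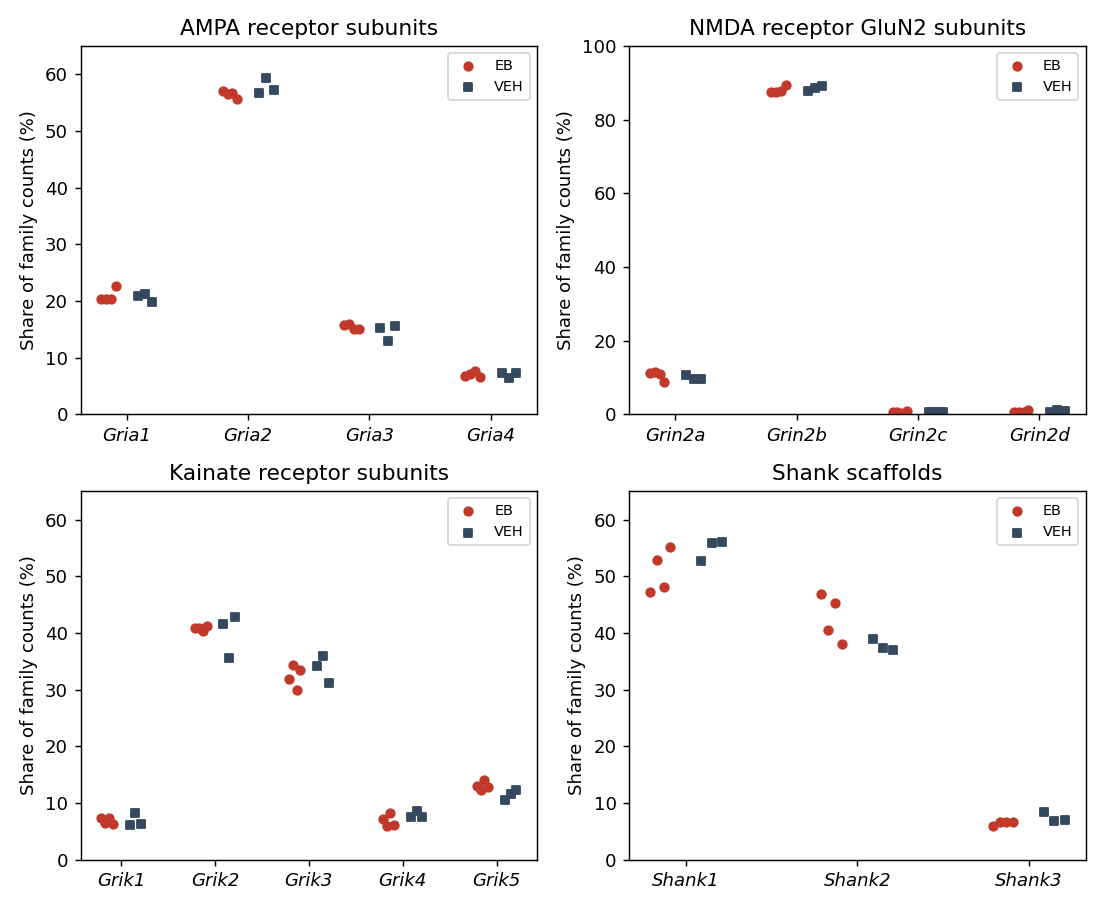
Share of each subunit in the counts of its family (%), 1 point per mouse, EB on the left of each pair and vehicle on the right, for AMPA, GluN2, kainate and Shank genes. Grin2b held 87.4% to 89.3% of GluN2 counts in EB mice and 87.7% to 89.1% in vehicle mice, and the shares of Shank3 do not overlap between the groups.

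Most GluN2 counts came from the GluN2B gene. Grin2b, whose subunit gives long-lasting currents and is the main GluN2 subunit of the young forebrain, had 896, 903, 909.9 and 865 CPM in EB mice, against 833, 926 and 918 CPM in vehicle mice. Its log2 change was 0.00 ± 0.06 (95% interval −0.12 to 0.13), so that any difference beyond 1.09-fold in either direction lay outside the interval. Grin2a, the GluN2A gene with faster decay, had 116, 117, 115 and 84.6 CPM in EB mice, against 103, 99.7 and 98.1 CPM in vehicle mice. EB 1 to 3 were above all vehicle mice and EB 4 was below them all (log2 0.11 ± 0.10, adjusted p = 0.867). Without EB 4 its unadjusted edgeR p was under 0.05, but its adjusted p was 0.325, and without vehicle 1 and EB 4 together its adjusted p was 0.379.

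Grin2c and Grin2d, the GluN2C and GluN2D genes, were minor, averaging 6.07 ± 1.36 and 7.97 ± 1.88 CPM in EB mice and 6.36 ± 0.753 and 9.30 ± 2.36 CPM in vehicle mice. Grin2d was highest in vehicle 2 and EB 4, at 11.9 and 10.8 CPM, against 6.78 to 8.81 CPM in the other libraries. Grin1, the obligatory GluN1 subunit, had 98.2, 89.9, 86.4 and 94.2 CPM in EB mice, against 80.5, 95.9 and 91.5 CPM in vehicle mice (log2 0.05 ± 0.08). Its antisense neighbour Grin1os overlaps 13.5% of its exon bases, and reads from the pair cannot be told apart without strand.

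Grin3a, the GluN3A gene that lowers calcium entry, was the NMDA receptor gene next below Grin2b per kb of exon, at 23.0 CPM per kb against 35.9 over 7 libraries. Per kb of the longest coding transcript Grin3a had 37.8 against 37.1 for Grin2b, with overlapping ranges (34.3 to 41.6 and 34.6 to 38.5). Grin3a averaged 276 ± 23.0 CPM in EB mice and 293 ± 20.2 CPM in vehicle mice (log2 −0.09 ± 0.08). Grin3b, its counterpart of motor neurons, had 1 to 4 counts in EB libraries and 1 to 6 counts in vehicle libraries, and 32.1% of its exon bases overlap Tmem259 on the other strand. As shares of GluN2 counts, Grin2b took 88.0 ± 0.907% in EB mice and 88.5 ± 0.708% in vehicle mice, and Grin2a 10.6 ± 1.26% and 9.97 ± 0.747%. Neither share passed the exact permutation test (p = 0.457 for both, two-sided).

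**Figure D3:**
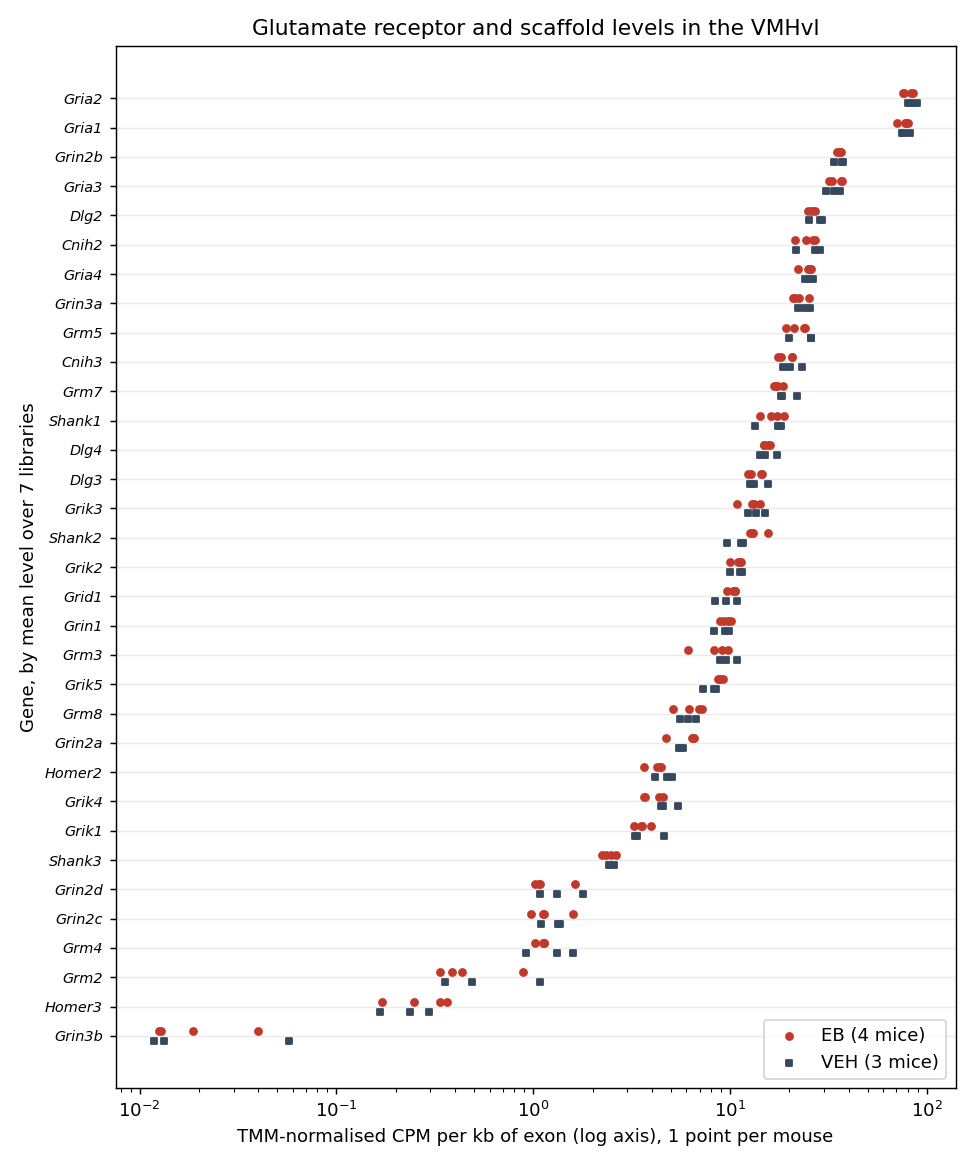
Level of each member in TMM-normalised CPM per kb of exon on a log axis, 1 point per mouse, EB above vehicle within a row, ordered by the mean over 7 libraries. Gria2 and Gria1 stand at the top, a gap separates Shank3 from Grin2d, and Grm6, with 0 counts in every library, is not drawn.

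Genes were ordered by level per kb of annotated exon, as the mean over 7 libraries; CPM and count shares also carry gene length. Gria2 (82.0 CPM per kb) and Gria1 (76.8) overlapped in range and stood above all others, followed by Grin2b (35.9) and Gria3 (34.2), which also overlapped each other. After a gap Dlg2 at 26.7 came next, and from there each gene overlapped its next lower neighbour without a break through Cnih2 (25.2), Gria4 (24.8), Grin3a (23.0) and Grm5 (22.8) down to Grik5 (8.52). Gaps followed between Grik5 and Grm8 (6.27), between Grik1 (3.66) and Shank3 (2.45), and between Shank3 and Grin2d (1.28). Grm2 (0.565) and Homer3 (0.260) overlapped, and Grin3b (0.0238) and Grm6 (0) lay below them. Divided by the longest coding transcript instead, a choice made after seeing the data, Gria2 (123) and Gria1 (83.7) led without overlap of their ranges, and Gria3 (64.9) lay above Grin2b (37.1), also without overlap. Grm8 (16.1) then stood above Grik5 (11.7), at place 15 in place of 22. In that order Dlg4 moved to place 7 from place 13, Grin1 to place 12 from place 19, and Grin2b to place 6 from place 3.

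Kainate receptor genes per kb of exon ran from Grik3 (13.1), Grik2 (10.9) and Grik5 (8.52) down to Grik4 (4.37) and Grik1 (3.66). Grik2 and Grik3, subunits that can form receptors by themselves, averaged 144 ± 8.59 and 115 ± 12.4 CPM in EB mice and 145 ± 10.5 and 122 ± 11.8 CPM in vehicle mice. Grik5, a high-affinity subunit that needs partners such as those, had 47.3, 45.6, 45.7 and 44.9 CPM in EB mice, against 37.8, 42.9 and 44.0 CPM in vehicle mice. Every EB mouse lay above every vehicle mouse, but the gap between EB 4 and vehicle 3 was narrow and the log2 change of 0.14 ± 0.09 did not pass (adjusted p = 0.732). The estimate was 0.0744 without vehicle 1.

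Grik4, the other high-affinity subunit, had 25.8, 21.9, 27.1 and 21.7 CPM in EB mice, against 26.5, 32.4 and 27.1 CPM in vehicle mice. The groups overlapped, and the log2 change was −0.25 ± 0.12 (adjusted p = 0.636), and −0.15 without vehicle 2. Grik1 averaged 24.1 ± 1.93 CPM in EB mice and 25.2 ± 4.97 CPM in vehicle mice. As a share of kainate counts, Grik5 took 13.0 ± 0.714% in EB mice and 11.5 ± 0.824% in vehicle mice (two-sided exact permutation p = 0.0571, adjusted p = 0.714). Per kb its share was 22.1 ± 0.935% in EB mice and 19.5 ± 1.38% in vehicle mice (exact permutation p = 0.0286, the smallest that 35 splits allow, adjusted p = 0.357). Grid1, the GluD1 gene, whose protein acts as a synaptic organiser, averaged 61.2 ± 2.47 CPM in EB mice and 57.0 ± 7.16 CPM in vehicle mice (log2 0.10 ± 0.09, and 0.0126 without vehicle 1).

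**Figure D4:**
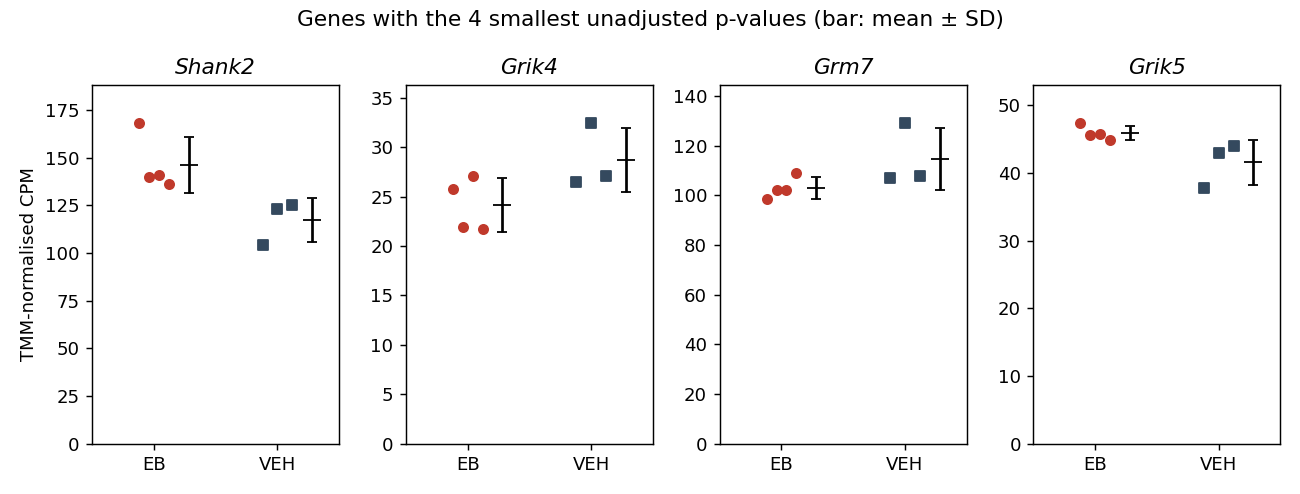
TMM-normalised CPM of the 4 members with the smallest unadjusted p, 1 point per mouse, EB left and vehicle right, with mean ± SD beside the points. Shank2 (EB 136 to 168, vehicle 104 to 125) and Grik5 (EB 44.9 to 47.3, vehicle 37.8 to 44.0) do not overlap between groups, and Grik4 and Grm7 do.

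No metabotropic receptor passed. Estimates were below 0 for 1 of 1 tested group I gene, 2 of 2 in group II and 2 of 3 in group III. Over all tested genes 51.7% were below 0. Grm5, the Gq-coupled group I receptor that binds Homer, had 243, 245, 196 and 216 CPM in EB mice, against 263, 204 and 265 CPM in vehicle mice (log2 −0.11 ± 0.10). Vehicle 2 sat among the EB mice. Without it the unadjusted edgeR p of Grm5 was under 0.05, but the adjusted p was 0.438. Grm3, a Gi-coupled group II receptor also made by astrocytes, had 27.7, 29.8, 18.7 and 25.3 CPM in EB mice, against 28.9, 27.2 and 33.2 CPM in vehicle mice (log2 −0.23 ± 0.15, adjusted p = 0.766, and log2 −0.11 without EB 3).

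Of 8 astrocyte markers, 0 were called and 8 had estimates below 0, against 51.7% of all tested genes. Their summed level was 4839 to 6108 CPM in EB mice and 5602 to 6270.2 CPM in vehicle mice, with overlap. EB 3 was lowest in both the sum and Grm3, but EB 4, with the highest sum of its group, had the next lowest Grm3. None of these markers was at 0 in any library, and their part in the Grm3 value was not tested.

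Grm2, the other group II receptor, had 58, 69, 39 and 105 counts in EB mice, against 45, 166 and 54 counts in vehicle mice. EB 4 and vehicle 2 stood far above the rest of their groups, at 4.32 and 5.26 CPM, against 1.64 to 2.38 CPM elsewhere, and its estimate turned from −0.34 to 0.27 without vehicle 2. Grm7, a presynaptic group III receptor of low glutamate affinity, had 98.6, 102, 102 and 109 CPM in EB mice, against 107, 129 and 108 CPM in vehicle mice. Only EB 4 reached the range of the vehicle mice, and the log2 change was −0.15 ± 0.08 (adjusted p = 0.664), and −0.0624 without vehicle 2. Grm8 averaged 63.0 ± 9.34 CPM in EB mice and 60.7 ± 5.62 CPM in vehicle mice, and Grm4, both of the same presynaptic group, averaged 6.60 ± 0.337 and 7.62 ± 1.99 CPM. Grm6, the receptor of retinal ON bipolar cells, had 0 counts in all 7 libraries, which allows up to 3 counts per library.

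Among scaffolds, Shank2 had the smallest p of all members, but did not pass the test. Shank2, a core scaffold of the postsynaptic density on chromosome 7 (chr7:144001928-144424494, plus strand, GENCODE M21 on GRCm38), had 168, 139.8, 141 and 136 CPM in EB mice, against 104, 123 and 125 CPM in vehicle mice. All EB mice were above all vehicle mice, with EB 1 farthest up and vehicle 1 farthest down. The mean log2 deviation of 14 VMH and VMHvl neuron markers was 0.31, 0.09, 0.18 and 0.01 in EB 1 to 4, against −0.19, −0.13 and −0.26 in vehicle 1 to 3. EdgeR called 3 of the 14 higher, against 0.712% of all tested genes. Pgr (log2 1.34, edgeR adjusted p = 3.4e-06) was 1 of them, so the list holds genes that differed with EB. The summed level of the 14 markers was 1673 to 1978 CPM in EB mice and 1479 to 2035 CPM in vehicle mice, and none was at 0 in any library. Of the 14, 6 had estimates below 0, against 51.7% of all tested genes. The EB mice had the same order in these markers and in Shank2, the vehicle mice did not, and the part of the markers in the Shank2 value was not tested. The Shank2 difference was 1.24-fold (log2 0.32 ± 0.09, 95% interval 0.12 to 0.51, unadjusted p = 0.00402) and did not pass over all genes (adjusted p = 0.196; 0.0697 by DESeq2 and 0.231 by limma-voom). Its log2 estimate was 0.23 to 0.36 with any 1 library left out and 0.27 without vehicle 1 and EB 4 together. No other annotated gene overlaps its exons.

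The groups overlapped in Shank1 and Shank3. Shank1, a scaffold of mature spines, had 169.6, 182, 149 and 198 CPM in EB mice, against 141, 184 and 189.9 CPM in vehicle mice (log2 0.02 ± 0.11). Shank3, known from human autism and Phelan-McDermid syndrome, averaged 22.2 ± 1.52 CPM in EB mice and 22.8 ± 0.696 CPM in vehicle mice (log2 −0.04 ± 0.11). Shank2 made up 46.8%, 40.6%, 45.3% and 38.1% of Shank counts in EB 1 to 4, against 38.9%, 37.3% and 37.0% in vehicle 1 to 3, with EB 4 inside the vehicle range. The difference of 4.95 percentage points had a two-sided exact permutation p of 0.114. The share of Shank3 was 6.49 ± 0.317% in EB mice and 7.39 ± 0.851% in vehicle mice, without overlap (exact permutation p = 0.0286, the smallest possible; adjusted p = 0.714, and 0.357 per kb). The difference was −0.899 percentage points, and −0.410 without vehicle 1. This was the 1 of 25 subunit shares with an unadjusted p under 0.05; no single share could pass the adjustment, since the smallest p of 0.0286 becomes 0.714 over 25 shares.

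The PSD-95 family and Homer genes gave overlapping groups. Dlg4, which encodes PSD-95, had 211, 196, 206 and 197 CPM in EB mice, against 188, 229 and 200.1 CPM in vehicle mice (log2 −0.02 ± 0.07, 95% interval −0.18 to 0.14). Dlg2 (PSD-93) averaged 422 ± 14.7 CPM in EB mice and 451 ± 35.7 CPM in vehicle mice (log2 −0.10 ± 0.06), and Dlg3 (SAP102) averaged 78.8 ± 6.64 and 80.6 ± 9.27 CPM. Dlg2 took most of the counts, with 60.0 ± 0.832% of the counts of the 3 genes in EB mice and 61.2 ± 2.22% in vehicle mice. Homer2, whose protein links Shank to Grm5, had 53.9, 55.5, 55.9 and 46.3 CPM in EB mice, against 52.3, 64.1 and 60.0 CPM in vehicle mice (log2 −0.15 ± 0.10). Homer3 had 19 to 30 counts in EB libraries and 13 to 32 counts in vehicle libraries, and 25.4% of its exon bases overlap Ddx49 on the other strand.

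Genes around these receptors were read from the same fit. Dlg1, which encodes SAP97, averaged 148 ± 6.33 CPM in EB mice and 158 ± 4.95 CPM in vehicle mice (log2 −0.09 ± 0.06, adjusted p = 0.775 by edgeR). Homer1, whose short form is an immediate early product of active synapses, averaged 91.1 ± 10.4 CPM in EB mice and 90.7 ± 8.10 CPM in vehicle mice, counted over all its forms (log2 0.00 ± 0.10, adjusted p = 0.996 by edgeR).

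Of 14 auxiliary and trafficking genes of AMPA and kainate receptors, edgeR, DESeq2 and limma-voom each called 0. By edgeR 2 had an unadjusted p under 0.05, against 8.54% of all tested genes. These were Abhd6, an enzyme that binds AMPA receptors, at 29.5 ± 3.79 CPM in EB mice and 22.9 ± 1.81 CPM in vehicle mice (adjusted p = 0.329), and Neto1, an auxiliary kainate receptor subunit, at 91.1 ± 8.54 and 108 ± 9.31 CPM (adjusted p = 0.363). Their median log2 change was 0.01.

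Of 29 other postsynaptic density genes all 3 tools called 0, and 3 had an unadjusted p under 0.05 by edgeR, against 8.54% of all tested genes. Estimates were below 0 in 20 of the 29, against 51.7% of all tested genes. The median was −0.06, against −0.008 over all tested genes. The smallest p belonged to Lin7a, a small adaptor, at 129.8 ± 6.08 CPM in EB mice and 152 ± 5.39 CPM in vehicle mice (log2 −0.23 ± 0.07, adjusted p = 0.188). Akap5, an anchor of protein kinase A and calcineurin, was at 58.4 ± 7.15 CPM in EB mice and 75.9 ± 11.2 CPM in vehicle mice (log2 −0.38 ± 0.11, adjusted p = 0.226; 0.0697 by DESeq2).

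Of 13 genes of glutamate loading and uptake, edgeR called 0 (3 at an unadjusted p under 0.05, against 8.54% of all genes, and 0 by limma-voom). Of these 13, 11 had estimates below 0, against 51.7% of all genes, with a median of −0.09, while DESeq2 called Slc17a6, which was higher with EB (adjusted p = 0.0208; 0.132 by edgeR). In 19 GABA-A and glycine receptor genes, the inhibitory counterpart, edgeR called 0 (5 at an unadjusted p under 0.05, 0 by limma-voom) with 17 estimates below 0 and a median of −0.11, and DESeq2 called Gabra4, which was lower with EB (adjusted p = 0.0366). The shares over all tested genes were those given for the previous list. Whether these lists differ from the glutamate receptor genes was not tested.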

How the data were processed

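Each VMHvl dissection was turned into an RNA-seq library with the NuGEN (now Tecan) Trio chemistry, according to the protocols in the labels. The values the authors deposited are raw counts for each gene symbol, whole numbers with no normalisation; HISAT2, HTSeq, DESeq2 and mm10 are named in the submitters' processing notes, while for versions, annotation, strand use and multiply mapped reads nothing is stated in those notes. Each library is 1 mouse, and replicate numbers follow accession order and only name mice.

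The filter filterByExpr (minimum count 10) left 18387 of the 31222 genes with any count. TMM scaling and the quasi-likelihood test of edgeR 4.0.16 (robust glmQLFit; R 4.3.3) followed, with Benjamini-Hochberg adjustment over all tested genes. Standard errors are the absolute log2 change over the square root of F, and 95% intervals use the test's degrees of freedom. The common biological coefficient of variation was 22.3%. Each subunit share was tested by exact permutation of the 35 possible splits, two-sided, with adjustment over 25 shares. Library pairs within a group differed by more than sampling noise (chi-square per degree of freedom 18.6 to 185). The pairs of vehicle 1 with vehicle 2 and with vehicle 3 were at 185 and 174, and vehicle 2 with vehicle 3 at 21.4. The EB pairs ran from 18.6 (EB 2 with EB 3) to 114 (EB 1 with EB 4). Alternatives were DESeq2 1.42.0, limma-voom (limma 3.58.1), 3 scalings, 2 filters, removal of mitochondrial, haemoglobin and rRNA genes, an adjusted p under 0.1, and libraries left out. Tests were checked on simulated data.

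Exon lengths and positions came from GENCODE M21 (GRCm38), as the union of exons over isoforms, which may differ from the annotation the counts used. Exons of 20 members overlap another annotated gene, 6 of them over more than 5% of their bases. The members, lists and alternatives were chosen with earlier results of these data known. All 34 members are named; of each pathway list, genes called by any tool, otherwise those with the 2 smallest p. Dlg1 and Homer1 were named after their values were seen, and the list they belong to is not reported here.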

Additional observations from a re-analysis of the deposited data

Results flagged for a closer look

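In the EB group, 57 sets of values (CPM of a tested member, or a subunit share) were examined for a mouse that stood apart from the other 3 by more than Dixon's 95% limit, and 7 held one, where chance gives about 5% of sets; shares and CPM of a gene are not independent. EB 4 accounted for 6 of the 7. It was lowest in Grin2a, at 84.6 CPM, and in the Grin2a share of GluN2 counts, at 8.73%. It was highest in Grin2d, at 10.8 CPM, and in the Grin2d share, at 1.11%. Its Gria1 share of AMPA counts, 22.6%, was the highest of the group, and its Grm4 level, 6.09 CPM, the lowest. In EB 4 the mean log2 deviation of marker lists from the 7-library mean was 0.65 for pituitary, 0.62 for mural cells and fibroblasts, 0.48 for tanycytes and ependyma, −0.30 for cortex, amygdala and striatum and −0.38 for thalamus. It was 0.34 for arcuate, 0.22 for astrocytes, −0.21 for oligodendrocytes and −0.49 for blood, and −0.11 to 0.19 for the rest. Kiss1 (arcuate), Hba-a1 and Hba-a2 (blood) were at 0 in some library. Other libraries also deviated. Vehicle 3 was at 0.70 for pituitary and −0.80 for blood. Vehicle 1 was at 1.13 for mural cells and fibroblasts, 1.05 for blood and 0.35 for tanycytes and ependyma. For mural cells and fibroblasts EB 1 was at −0.74 and vehicle 2 at −0.70. EB 1 was at −0.27 for thalamus, and EB 3 at 0.45 for thalamus, 0.36 for arcuate and −0.32 for astrocytes. Among the lists valued singly above, EB 4 was farthest from 0 for tanycytes and ependyma, for cortex, amygdala and striatum, and for oligodendrocytes. The summed cortex, amygdala and striatum markers were at 259.7 CPM in EB 4, 261 to 291 CPM in the other EB mice and 259 to 308 CPM in vehicle mice, with Emx1 and Adora2a at 0 in some library, as were Prl, Gh and Pitx1 of the pituitary list and Ccdc153 of the tanycyte and ependyma list. The part of these cells in the values above was not tested. The remaining value was that of Shank2 in EB 1, at 168 CPM, the highest of the group; without EB 1 the Shank2 log2 change was 0.24 (adjusted p = 0.506).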

How the results depend on the processing

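No paired analysis was possible because EB and vehicle mice share no replicate number in the labels. The count of members called was 0 in every alternative run, and the smallest adjusted p of a member was 0.0697 (Shank2, DESeq2). An unadjusted edgeR p under 0.05 was reached by 5 members without vehicle 1 (Dlg2, Shank2, Grm7, Homer2 and Grik4). Without vehicle 1 and EB 4 together it was reached by 5 as well (Grin2a, Shank2, Grin2d, Grm2 and Grm7). The share of all genes under 0.05 in either run is not given, so neither count can be set against a background. The smallest edgeR adjusted p of a member was 0.425 without vehicle 1 and 0.379 without vehicle 1 and EB 4 together. Over all genes 169 were called (131 higher, 38 lower), 351 by DESeq2 (232 and 119), and 94 to 159 with any 1 library left out, lowest without vehicle 3 (94) and EB 1 (103). The median log2 change of members ran from −0.08 to −0.01 with 1 library left out. Of 512 member values under alternatives 476 kept their direction; none was called, and the cause of reversals was not tested. Reversed values were −0.000266 (DESeq2) and −0.00169 (upper-quartile scaling) for Grin2b, and 0.00173 for Grik2 by limma-voom. With scaling by library size alone they were 0.0140 for Gria1, 0.0307 for Grik2, 0.000890 for Dlg3, 0.0109 for Dlg4 and 0.00145 for Shank3. Without vehicle 1 and EB 4 together they were 0.00426 for Gria4, −0.0344 for Grin1, −0.0296 for Grin2b, 0.00552 for Grik2 and −0.16 for Shank1. With each library left out in turn, log2 changes that crossed 0 ran from −0.0520 to 0.0173 for Gria1, −0.0158 to 0.10 for Gria3, −0.0758 to 0.00555 for Gria4, −0.0278 to 0.10 for Grin1, −0.0488 to 0.0294 for Grin2b, −0.23 to 0.0172 for Grin2c, −0.16 to 0.11 for Grik1 and −0.0652 to 0.0338 for Grik2. They ran from −0.73 to 0.27 for Grm2, −0.0147 to 0.15 for Grm8, −0.0968 to 0.0643 for Dlg3, −0.0873 to 0.0637 for Dlg4, −0.10 to 0.0997 for Shank1 and −0.17 to 0.0257 for Cnih2. No single share could reach the adjusted threshold with 7 mice, and with 6 the permutations allow fewer splits still. The difference in the Gria4 share was −0.0310 points per kb, and shares that crossed 0 with a library left out ran from −0.236 to 0.602 points for Gria1, −0.246 to 0.186 for Gria4, −0.108 to 0.0107 for Grin2c, −0.449 to 0.592 for Grik1, −1.38 to 2.22 for Grik2, −2.51 to 2.73 for Grm2, −0.777 to 0.0738 for Grm4, −0.319 to 0.589 for Dlg3 and −0.424 to 2.32 for Cnih2. Counts per library were 13 to 32 for Homer3, 1 to 6 for Grin3b and 0 for Grm6.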
